A study of Mus musculus with 4 samples.

Results

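Of the 27027 genes in the deposited count table, 10 are described here, the 7 annexins Anxa1, Anxa2, Anxa3, Anxa4, Anxa5, Anxa6 and Anxa7 and the 3 galectins Lgals1, Lgals3 and Lgals9. They were taken by gene symbol, and all 10 were found. The samples were livers of male C57BL/6 mice (C57BL/6J in the study's methods) aged 9 to 12 weeks, fasted for 10 h and then injected intraperitoneally with acetaminophen (APAP, 300 mg/kg) or with the saline vehicle alone. APAP in overdose kills hepatocytes through a reactive metabolite, and livers were taken after 24 h and 48 h. The control pools held RNA of 6 mice each and the APAP pools RNA of 7 mice each. Each pool gave 1 library, so the spread between mice cannot be seen, no test between conditions could be made, and every interval given here covers counting error only.

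The libraries were made by massive analysis of cDNA ends (MACE), which sequences mRNA near its poly(A) tail, at the 3′ end. Between 4859661 and 5698778 reads were counted on genes in a library. Levels are given as reads or as RPM, the reads of a gene scaled to an equal total in every library, with 95% exact binomial intervals. Folds compare each APAP pool with its time-matched control, after division by size factors, and carry 95% exact intervals from the reads of both libraries. A gene was called at a fold of at least 2, in either direction. The share of called genes is given over the 12113 genes whose normalized reads averaged 10 or more in the 4 libraries, called the genes tested although no statistical test was possible. All 10 annexins and galectins were among them. RPM values and their sums use library totals and not size factors, so they are not on the scale of the folds. By library totals, the median log2 fold over the genes tested was 0.19 at 24 h and 0.25 at 48 h. By size factors it was 0.01 and -0.02.

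Annexins are cytosolic proteins that bind negatively charged phospholipids when calcium rises, and they serve in membrane repair, vesicle traffic and the handling of dying cells. Galectins bind β-galactoside sugars on glycoproteins, inside cells and after secretion, and take part in the clearance of debris and the control of leukocytes. In liver injury, galectin-3 is known as a product of macrophages and annexin A1 as a signal that dampens neutrophil entry.

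Lgals3 and Anxa2 were past a 2-fold increase after APAP at both time points. At 48 h, Lgals1, Anxa1 and Anxa3 were also past this fold. Called at least 2-fold higher were thus 2 of the 10 genes at 24 h, against 5.85% of all genes tested, and 5 of 10 at 48 h, against 5.76%. At both time points it was 2 of 10, against 2.15%. By the threshold of the study, 5-fold, 0 of the 10 genes were higher at 24 h, against 0.652% of all genes, and 3 were at 48 h (Lgals3, Anxa1 and Anxa2), against 0.553%. None of the 10 was at least 2-fold lower at 24 h or 48 h, where 5.68% and 5.61% of all genes were. The median log2 fold of the 10 genes was 0.31 at 24 h and 1.13 at 48 h, against 0.01 and -0.02 over all genes tested. In RNA of whole liver, more cells of a type and more RNA per cell cannot be told apart.

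**Figure D1:**
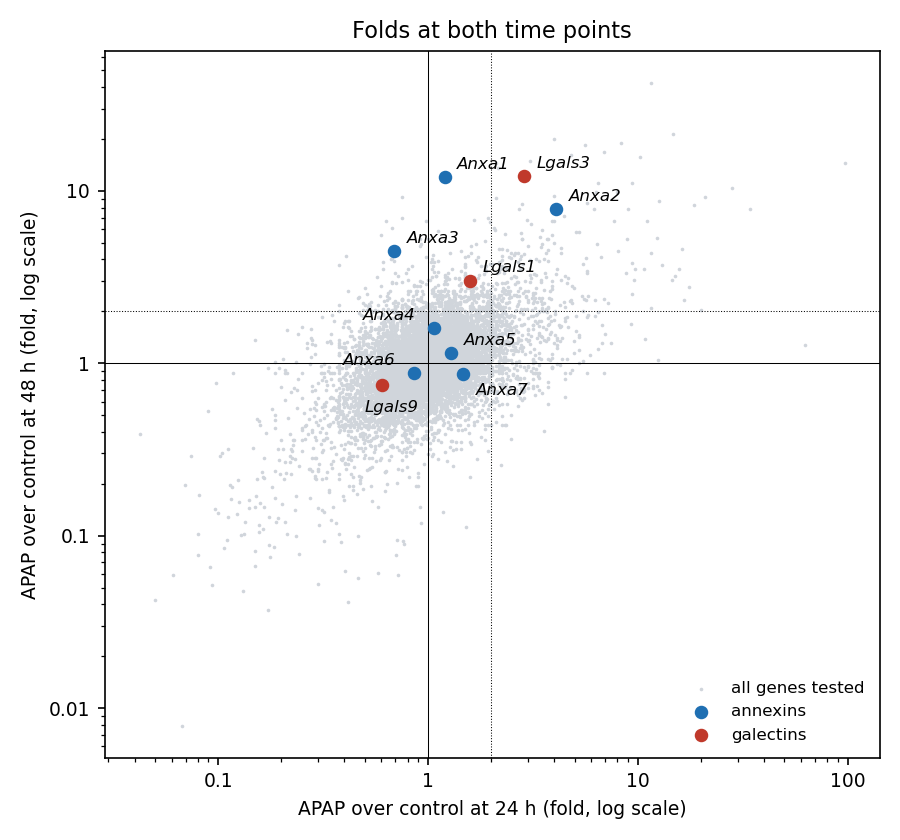
Fold of each gene between the APAP pool and the control pool at 24 h (horizontal, log scale) and at 48 h (vertical, log scale), for all 12113 genes tested in grey, annexins in blue and galectins in red. Solid lines mark equal levels and dotted lines a fold of 2. Lgals3 and Anxa2 lie past both dotted lines, and Anxa1, Anxa3 and Lgals1 lie past the one for 48 h only.

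The 250 bases before the RefSeq start (GRCm38.p6) were searched for motifs. They are described for the 3 genes at least 5-fold higher at 48 h (Anxa1, Anxa2 and Lgals3). The RefSeq starts of these 3 genes differ from those in GENCODE. The first GENCODE exon in a window and the bases after it cover all 250 bases for Anxa1. They cover the last 63 for Anxa2 and the last 47 for Lgals3. Exon and intron were not told apart in these bases. The Anxa1 and Lgals3 windows lie inside the span of their gene. For Anxa2 and Lgals3, the 2 genes past 2-fold at both time points, the bases before the first GENCODE exon within the window are shown. They lie at chr9:69453433-69453619 and chr14:47373610-47373812 (both plus strand). The Lgals3 stretch is not upstream of its gene, which starts at 47367751. They read 5′ to 3′, with matches to the AP-1 motif, whose letters are TGANTCA, in capitals.
Anxa2: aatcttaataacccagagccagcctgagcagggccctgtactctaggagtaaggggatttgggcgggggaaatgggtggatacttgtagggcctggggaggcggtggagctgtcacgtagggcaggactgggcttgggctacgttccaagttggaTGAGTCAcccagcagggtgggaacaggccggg
Lgals3: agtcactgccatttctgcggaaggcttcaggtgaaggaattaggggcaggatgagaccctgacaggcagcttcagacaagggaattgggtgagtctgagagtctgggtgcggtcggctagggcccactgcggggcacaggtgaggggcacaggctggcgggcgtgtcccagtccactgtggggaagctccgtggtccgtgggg
The Anxa2 stretch held a match to the AP-1 motif, 95 to 89 bases before the RefSeq start, and a copy of GGGCGG, the GC box. Besides, a TATA box with the letters TATAAA and 2 more GC boxes fell from the first GENCODE exon on for Anxa2. A TATA box did so for Anxa1. The Lgals3 stretch held no match to the AP-1 motif, but 1 match each to CCAAT and to the NF-kB motif. The GC box of Lgals3 lay from the first GENCODE exon on. None of these matches overlapped another. Of the 32851 promoter windows of this length in the table, on both strands, 6.75% held TGANTCA, 12.4% TATAAA, 32.7% GGGCGG, 33.8% CCAAT and 7.25% the NF-kB motif. Of the 10 genes, 7 had an entry, and TGANTCA was found only in that of Anxa2. The NF-kB motif was also matched in an entry of Anxa4, whose folds were 1.07 and 1.60. GGGCGG was also found for Anxa7. The table held no entry matched to Anxa3, Anxa6 or Lgals1. A match is a description of these letters and not a bound site.

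Lgals3 encodes galectin-3, the galectin with a long collagen-like tail. Its gene lies on the plus strand of chromosome 14 of GRCm38 from 47367751 to 47386160, with 6 exons in the principal transcript and 483 bases of 3′UTR, the end that MACE reads. The reads of Lgals3 numbered 45 and 46 in the controls of 24 h and 48 h, against 173 and 644 after APAP. In RPM this is 9.26 and 8.86 in the controls against 30.4 and 130.4 after APAP. Both APAP pools were above both control pools, and the 48 h pool was the highest. The 24 h fold was 2.88 (2.06 to 4.09), and the 48 h fold 12.2 (9.07 to 16.9). Among the 12113 genes, the fold at 48 h ranked 14, and that at 24 h 287. The control pools differed by less than their counting error, with a ratio of 48 h over 24 h of 0.964 (0.625 to 1.49).

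Lgals1 encodes galectin-1, a small galectin made by mesenchymal and immune cells. The gene lies on the plus strand of chromosome 15 from 78926725 to 78930465. Its reads numbered 111 and 153 in the controls of 24 h and 48 h, against 235 and 527 after APAP. The order of its levels was the control pool at 24 h (22.8 RPM), the control pool at 48 h (29.5), APAP at 24 h (41.2) and APAP at 48 h (107). The fold of 1.59 (1.26 to 2.01) at 24 h did not reach 2, and the fold of 3.01 (2.51 to 3.63) at 48 h did. The control pools also differed, 48 h over 24 h by 1.30 (1.01 to 1.68). Against the control pool of the other time point, the fold of Lgals1 was 1.22 at 24 h and 3.92 at 48 h.

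Lgals9 encodes galectin-9, a galectin with a pair of sugar-binding domains and a ligand of the receptor TIM-3. It had the most reads of the 10 genes in every library, with 2012 and 1874 in the controls against 1618 and 1607 after APAP. Its levels were 414 and 361 RPM in the controls against 284 and 325 RPM after APAP. Both APAP pools were below both control pools. Lgals9 was 1.66 times lower at 24 h (fold 0.602, interval 0.564 to 0.644) and 1.33 times lower at 48 h (fold 0.750, 0.701 to 0.802), which is short of 2-fold. Scaled by library totals instead, the folds were 0.686 and 0.902. Its control pools differed by a ratio of 0.878 (0.824 to 0.936).

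Summed over the 3 galectins, without size factors, the libraries held 446 and 399 RPM in the controls of 24 h and 48 h. After APAP they held 356 and 563 RPM. Lgals9 made up 92.8% (91.6 to 93.9) and 90.4% (89.1 to 91.6) of these reads in the controls. Its share in the 24 h APAP pool was 79.9% (78.0 to 81.6), and in the 48 h APAP pool 57.8% (56.0 to 59.7). Lgals3 went from 2.08% and 2.22% in the controls to 8.54% at 24 h and 23.2% at 48 h, and Lgals1 from 5.12% and 7.38% to 11.6% and 19.0%. Shares compare reads of 3′ ends, which were not divided by transcript length.

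Anxa2 encodes annexin A2, which joins with S100A10 in a complex that binds plasminogen and its activator at the cell surface. The gene lies on the plus strand of chromosome 9 from 69453620 to 69491795, with 13 exons and 293 bases of 3′UTR in the principal transcript. Its reads numbered 58 and 61 in the controls of 24 h and 48 h, against 317 and 546 after APAP. The levels were 11.9 and 11.7 RPM in the controls and 55.6 and 111 RPM after APAP. The control pools were nearly equal, with a ratio of 0.992 (0.681 to 1.45). Its 24 h fold was 4.09 (3.09 to 5.52), and its 48 h fold 7.83 (6.00 to 10.4). Among all genes tested, these folds ranked 121 and 32. Anxa2 was the only 1 of the 7 annexins with a fold of at least 2 at both time points.

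Anxa1 encodes annexin A1, which acts through formyl peptide receptors and mediates part of the anti-inflammatory action of glucocorticoids. Its gene lies on the minus strand of chromosome 19 from 20373428 to 20390944. It was the gene of the 10 with the fewest reads, 15 and 3 in the controls of 24 h and 48 h, against 24 and 41 after APAP. The 24 h fold was 1.20 (0.604 to 2.46), and the 48 h fold 12 (3.81 to 60.3). The value at 48 h rests on the 3 reads of the control pool at that time. The control pools differed from each other by a ratio of 0.189 (0.0350 to 0.667), and Anxa1 was the only 1 of the 10 genes past 2-fold between them, against 5.20% of all genes tested. Against the other control pool, the fold was 6.36 at 24 h and 2.25 at 48 h. Between the APAP pools, Anxa1 was 1.88-fold higher (1.11 to 3.25) at 48 h than at 24 h.

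Anxa3, a less studied annexin found in neutrophils and in some epithelia, had 26 and 16 reads in the controls, against 24 and 82 after APAP. Only the APAP pool at 48 h stood above the other libraries. The fold was 0.692 (0.380 to 1.25) at 24 h, within counting error, and 4.48 (2.60 to 8.21) at 48 h. Against the other control pool, the fold was 1.19 at 24 h and 2.60 at 48 h. Between the APAP pools, Anxa3 was 3.76-fold higher (2.36 to 6.20) at 48 h.

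The other annexins stayed within 2-fold at both time points. Anxa4, an annexin of secretory epithelia, was counted with 150 and 124 reads in the controls and 214 and 227 after APAP. Its 24 h fold was 1.07 (0.863 to 1.33), its 48 h fold 1.60 (1.28 to 2.01), and its control pools had a ratio of 0.780 (0.610 to 0.996). Against the other control pool, its fold at 48 h was 1.25.
Anxa5, the annexin used as a probe for phosphatidylserine on dying cells, was counted with 291 and 412 reads in the controls and 501 and 535 after APAP. Its folds of 1.29 (1.11 to 1.5) and 1.14 (0.997 to 1.29) were no larger than the ratio between its control pools, 1.34 (1.15 to 1.56). Against the other control pool, the fold was 0.966 at 24 h and 1.52 at 48 h.
Anxa6, which has a doubled annexin core and sits at plasma membrane and endosomes, was the steadiest of the 7 in reads, with 469 and 510 in the controls and 535 and 512 after APAP. Its 24 h fold was 0.855 (0.754 to 0.970), its 48 h fold 0.878 (0.775 to 0.994), and with library totals it was 0.973 and 1.06, the latter on the other side of 1.
Anxa7, an annexin with a long amino-terminal tail linked to membrane fusion, was counted with 210 and 201 reads in the controls and with 413 and 198 after APAP. Only the APAP pool at 24 h stood above the other libraries. Its 24 h fold was 1.47 (1.24 to 1.75), and its 48 h fold 0.861 (0.704 to 1.05). With library totals, the latter was 1.04.

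**Figure D2:**
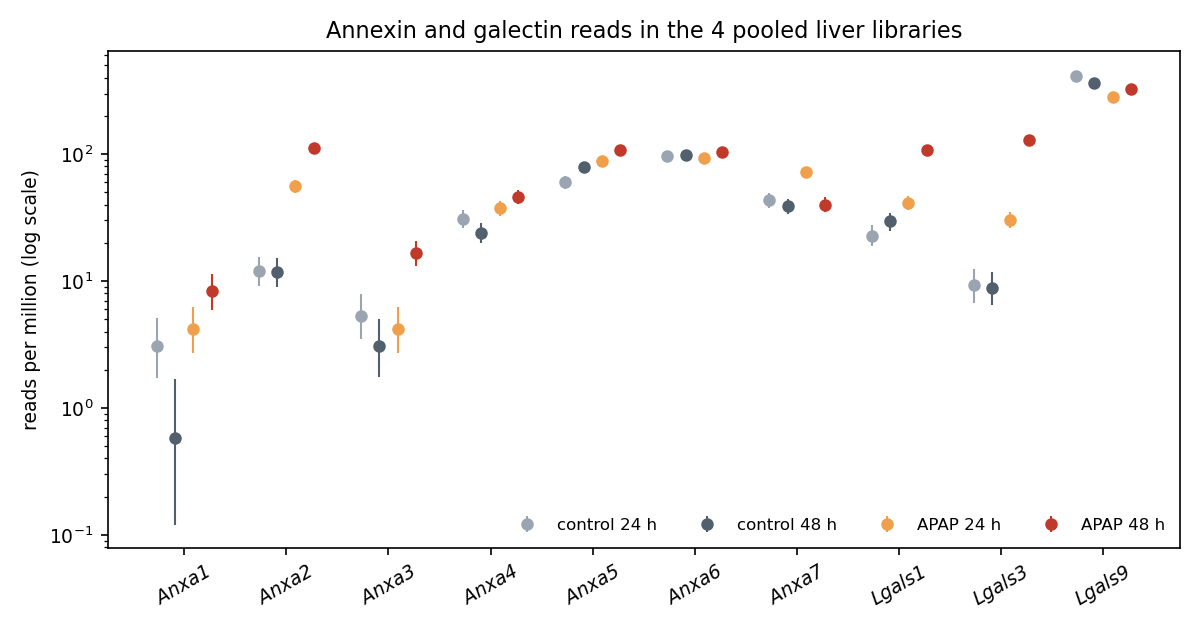
Level of each annexin and galectin in the 4 libraries, in RPM on a log scale, with 95% exact binomial intervals. Grey points are the control pools and coloured points the APAP pools, 1 library each. Anxa2 lies at 11.9 and 11.7 RPM in the controls and at 55.6 and 111 RPM after APAP, and Lgals3 at 9.26 and 8.86 against 30.4 and 130.4 RPM, while Lgals9 is lowest in the APAP pools.

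Summed over the 7 annexins, without size factors, the libraries held 251 and 256 RPM in the controls, against 356 and 434 RPM after APAP. Anxa6 took 38.5% (35.7 to 41.3) and 38.4% (35.8 to 41.1) of these reads in the controls, and Anxa2 4.76% (3.63 to 6.11) and 4.60% (3.53 to 5.87). After APAP, Anxa2 took 15.6% (14.1 to 17.3) at 24 h and 25.5% (23.7 to 27.4) at 48 h, where Anxa5 with 25.0% and Anxa6 with 23.9% had shares within its interval. Anxa7 took 20.4% at 24 h and 9.25% at 48 h.

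**Figure D3:**
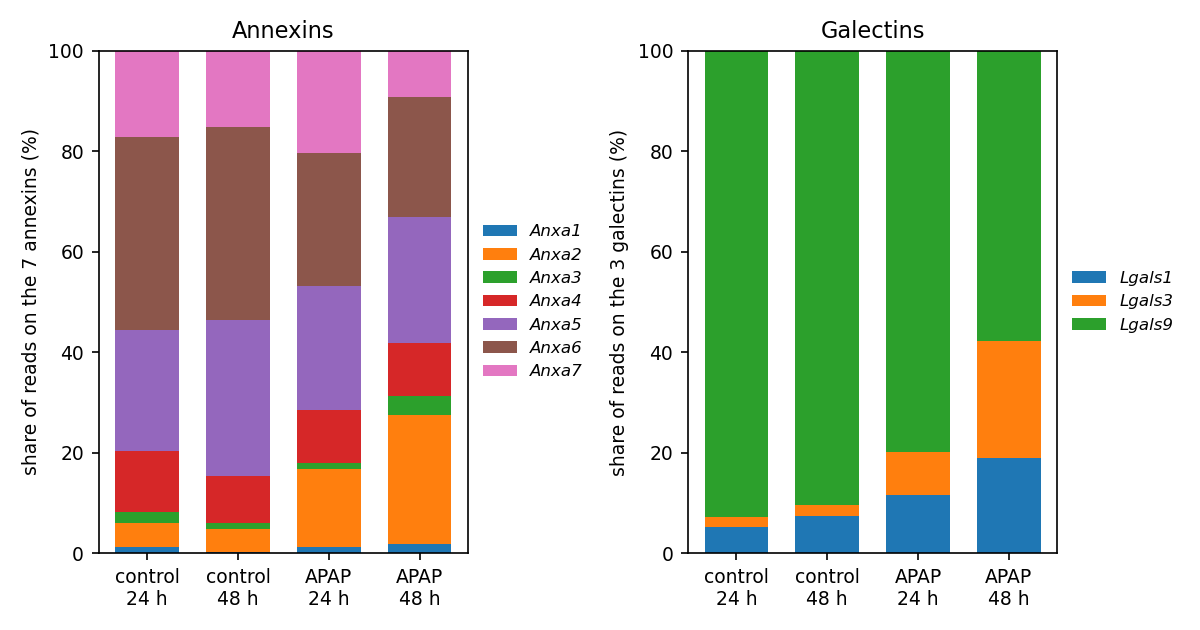
Share of the reads on the 7 annexins (left) and on the 3 galectins (right) that each gene took in each library, in percent. Between control and APAP at 48 h, the share of Anxa2 goes from 4.60% to 25.5% and that of Lgals9 from 90.4% to 57.8%.

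The folds at 24 h and 48 h were set against each other by the ratio of both, with an exact interval from the 4 counts. For 7 of the 10 genes the interval lay above 1, against 8.85% of all genes tested, and for Anxa7 it lay below 1. In either direction, it was 8 of 10 against 19.8%. Such intervals are narrower for genes with more reads, and the genes tested start at an average of 10 normalized reads. These shares therefore also depend on read depth, which was not matched. By the same kind of interval, the control pools differed from each other for 5 of the 10 genes (Anxa1, Anxa4, Anxa5, Lgals1 and Lgals9) and for 18.9% of all genes, so these intervals compare 4 libraries and do not show that the effect of APAP differed. These ratios were 4.25 (2.65 to 6.78) for Lgals3, 1.91 (1.27 to 2.86) for Anxa2, 1.90 (1.41 to 2.56) for Lgals1, 6.48 (2.80 to 15.1) for Anxa3 and 9.97 (2.41 to 57.7) for Anxa1. Anxa4 and Lgals9 had smaller ones, 1.5 (1.09 to 2.05) and 1.24 (1.13 to 1.37). For Anxa7 the ratio was 0.585 (0.448 to 0.763), and for Anxa5 and Anxa6 the interval held 1. The fold at 48 h was at least 2 times that at 24 h for 3 of the 10 genes (Anxa1, Anxa3 and Lgals3), against 5.88% of all genes tested. It was at most 1/2 of it for 0 of 10, against 6.28%. Part of a ratio comes from the control pools. Between the APAP pools alone, 48 h over 24 h, the ratio was at least 2 for 3 genes, Lgals3 with 4.10 (3.46 to 4.88), Anxa3 with 3.76 (2.36 to 6.20) and Lgals1 with 2.47 (2.11 to 2.89). The share of all genes past this ratio was not computed, so the count of 3 cannot be judged against it. The ratio was 1.90 (1.65 to 2.18) for Anxa2 and 1.88 (1.11 to 3.25) for Anxa1. Anxa5, Anxa4, Lgals9 and Anxa6 lay between 1.05 and 1.18, with intervals that held 1 for Anxa4 (0.964 to 1.41) and Anxa6. Anxa7 was lower in the later APAP pool, at 0.528 (0.443 to 0.627).

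**Figure D4:**
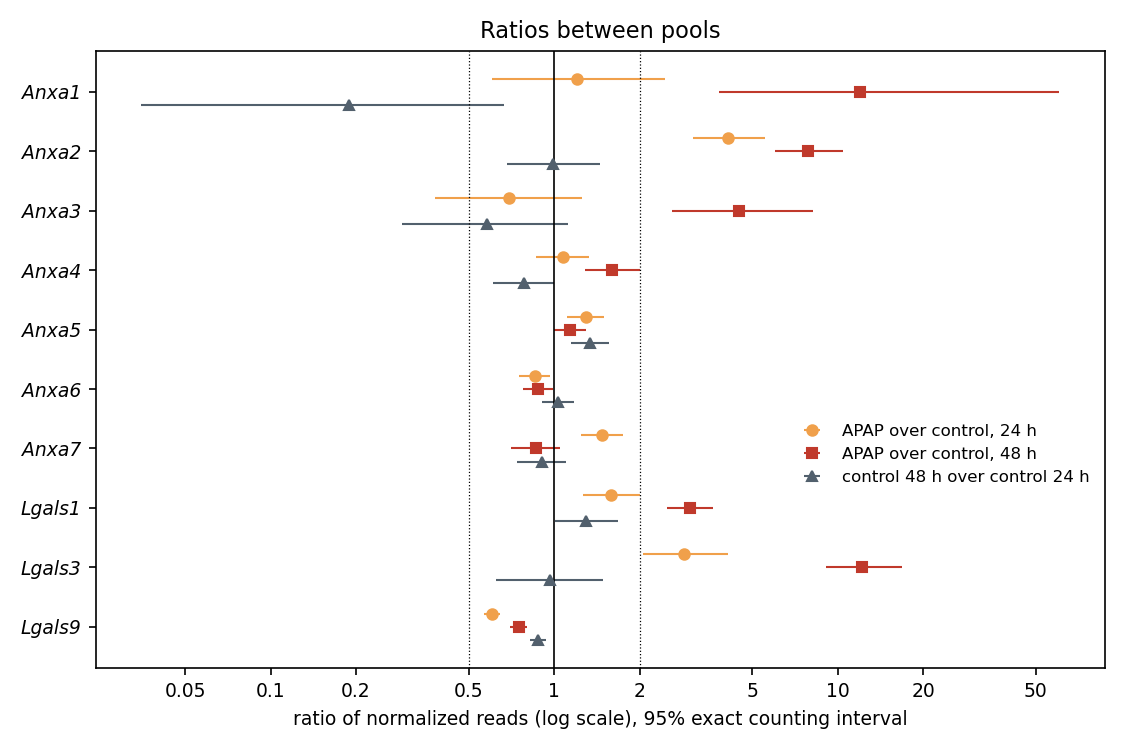
Ratios of normalized reads for each gene on a log scale, with 95% exact counting intervals: APAP over control at 24 h (circles), APAP over control at 48 h (squares) and the control pool at 48 h over that at 24 h (triangles). The solid line marks 1 and the dotted lines a fold of 2 up or down. For Lgals3 and Anxa2 both APAP ratios lie right of the upper dotted line while the control ratio sits near 1, and for Anxa1 the control ratio of 0.189 lies far left.

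Of the other annexins, Anxa8, Anxa10 and Anxa13 had 3 reads or fewer in every library, and Anxa9 had 5 and 2 reads in the controls and 7 in each APAP pool. Anxa11 was the only 1 of these 5 with enough reads to be tested, with folds of 0.922 (0.630 to 1.36) and 0.729 (0.452 to 1.17). Of the other galectins, no gene was found under the symbols Lgals6 and Lgals12, Lgals7 had 0 reads in every library, and Lgals2 had at most 2. Lgals4, with 11 and 12 control reads and 14 and 8 after APAP, had folds of 0.954 (0.402 to 2.32) and 0.583 (0.207 to 1.55). Lgals8, a galectin that senses damaged endosomes and lysosomes, was counted with 226 and 244 reads in the controls and 224 and 209 after APAP, a fold of 0.743 (0.615 to 0.897) and 0.749 (0.620 to 0.905).

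Among 8 partners of annexins, 6 had enough reads to be tested. Of these, 3 at 24 h and 4 at 48 h were at least 2-fold higher, where 5.85% and 5.76% of all genes tested were, and none was at least 2-fold lower. The same shares stand beside the counts of the other lists. S100a11, the partner of annexin A1, was counted with 67 and 89 reads in the controls and 292 and 412 after APAP, a fold of 3.27 (2.50 to 4.32) and 4.05 (3.21 to 5.15). S100a6, which binds annexin A2, had 30 and 26 control reads and 121 and 364 after APAP, a fold of 3.02 (2.01 to 4.67) and 12.2 (8.22 to 19.0). S100a10, the obligate partner in the annexin A2 complex, was 1.61-fold higher (1.48 to 1.74) at 24 h and had a fold of 0.861 (0.783 to 0.946) at 48 h, with 895 and 885 reads in the controls and 1920 and 871 after APAP. The scaffold Ahnak had folds of 1.13 (0.881 to 1.47) and 2.16 (1.67 to 2.83).
Plaur, the receptor that holds urokinase at the cell surface, had 2 reads in each control pool and 31 and 23 after APAP. Its ratios were 11.6 (2.95 to 100.1) and 10.1 (2.48 to 88.0). Plasminogen itself (Plg), a product of hepatocytes, had folds of 0.726 (0.695 to 0.759) and 0.789 (0.755 to 0.825). The activators Plat and Plau had at most 7 reads in any library. The annexin A1 receptors Fpr1, Fpr2 and Fpr3 had at most 11 reads in any library, and no difference was detectable for them at this depth. The row of Fpr2 also names the identifier of Fpr3, so reads may be shared between them.

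Among 8 partners of galectins, all with enough reads, 1 at 24 h and 2 at 48 h were at least 2-fold higher. Havcr2, which encodes the galectin-9 receptor TIM-3, was higher at both time points, with 21 and 30 reads in the controls and 106 and 82 after APAP, a fold of 3.78 (2.35 to 6.36) and 2.39 (1.56 to 3.76). Its ligand Lgals9 was lower in both APAP pools, as described. Ptprc (CD45), the other 1 at 48 h, had 9 reads in each control pool and a fold of 2.14 (0.946 to 5.27), in rows of the table that also name another gene model. Lgals3bp, a secreted glycoprotein bound by galectin-3, had folds of 0.905 (0.777 to 1.05) and 1.21 (1.04 to 1.41). The lysosomal glycoprotein Lamp1 had folds of 0.756 (0.710 to 0.806) and 0.845 (0.796 to 0.897).

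Of 9 genes for the exposure and recognition of phosphatidylserine, 1 at 24 h and none at 48 h was at least 2-fold higher. That 1 was Ano6, a scramblase, with 2.25-fold (1.56 to 3.30) at 24 h and 1.47-fold (1.03 to 2.10) at 48 h. The engulfment receptor Mertk had folds of 1.45 (1.05 to 2.02) and 1.06 (0.801 to 1.42). Of the membrane repair genes, 5 had enough reads, and none of the 5 was past 2-fold at 24 h or 48 h. The median log2 fold of this list was 0.27 and 0.09, and that of the phosphatidylserine list 0.20 and 0.09.

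The 6 hepatocyte markers, defining for the labelled tissue, took 69398 to 85305 RPM in the 4 libraries, mostly from Alb, Apoa1 and Ttr. Cyp2e1, the enzyme that activates APAP, had folds of 0.623 (0.601 to 0.645) and 0.369 (0.354 to 0.385), and Ttr 0.561 (0.554 to 0.568) and 1.06 (1.05 to 1.07). These 2 do not stand for the list, whose median log2 fold was -0.26 at 24 h and -0.04 at 48 h. At 24 h the interval lay below 1 for 4 of the 6 markers and above 1 for 2. Those 2 were Apoa1 with 1.17 (1.16 to 1.18) and Hnf4a with 1.17 (1.06 to 1.28). At 48 h it lay below 1 for 3 and above 1 for 1, with folds of 0.989 for Alb and 0.971 for Cps1. The 8 markers of monocytes and macrophages summed to 73.5 and 78.8 RPM in the controls, against 148 and 273 RPM after APAP. Of the 7 with enough reads, 3 were past 2-fold higher at 24 h and 5 at 48 h. Lyz2, a lysozyme of these cells, had folds of 3.42 (2.70 to 4.39) and 5.39 (4.38 to 6.67), while Adgre1 had 0.793 (0.531 to 1.19) and 1.14 (0.738 to 1.76) and Csf1r 0.995 (0.791 to 1.25) and 0.936 (0.762 to 1.15). The 6 neutrophil markers listed in the table summed to 3.29 and 3.27 RPM in the controls and 44.4 and 34.6 RPM after APAP, most of it from S100a8 and S100a9, while Elane had 0 reads in 3 of the 4 libraries. The 5 Kupffer cell markers summed to 124 and 117 RPM against 143 and 202, and the 6 stellate cell markers to 59.3 and 62.2 against 53.5 and 112. Of the stellate markers, Col1a1, Col3a1 and Des were at least 2-fold higher at 48 h, while Reln (0.846), Lrat (0.832) and Colec11 (0.609) had folds under 1. The summed monocyte and macrophage markers had the order of Lgals3, Anxa2 and Lgals1 in the APAP pools, highest at 48 h. This order was not particular to them. The sums of hepatocyte, Kupffer cell, stellate cell and sinusoidal endothelium markers were also highest at 48 h. The neutrophil and cholangiocyte sums had the opposite order in the APAP pools. The part of these cells in the folds of the annexins and galectins was not tested.

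None of the 10 genes shares its 3′ end with another transcript, by at least 95% identity over at least 100 of the last 300 bases. A gene on the opposite strand covers the 3′ end of Anxa1 (1500015L24Rik) and of Anxa4 (Gm44036), and each of these had at most 3 reads in a library.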

How the data were processed

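Hepatic RNA of mice was pooled per condition and sequenced as 4 MACE libraries, 1 per condition. The authors removed duplicate reads by unique molecular identifiers, removed low-quality bases with cutadapt, clipped poly(A) stretches and mapped to mm10. The deposited values used here are the authors' raw read counts for each gene, made with HTSeq. Versions of these tools are not given in the sources used here. The deposited table also holds RPM values, log2 ratios, p-values and FDR values of the authors' own comparison, which were not used. Libraries were assigned to conditions by their titles, and the numbers of mice, their age and fasting come from the study's methods.

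Counts were divided by size factors (DESeq2 1.42.0, median of ratios, in R 4.3.3), or in alternatives by TMM (edgeR 4.0.16) or library totals. With 1 library per condition, no count model was fitted and no p-value computed. In a fold, a denominator of 3 reads or fewer was set to 3 reads. Where a control had 1 to 3 reads, the ratio of the reads is printed with its interval. Intervals of folds are 95% Clopper-Pearson intervals of the APAP share of reads, scaled by the size factors, and intervals of the ratio of folds are exact conditional intervals of the 4 counts (scipy 1.17.1 in Python 3.11.15). They cover counting error only. Median log2 folds of lists use a pseudocount of 1. The procedure was tested on simulated data.

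Positions are from GENCODE mouse release 21 (GRCm38), and 3′ ends were compared by blastn 2.17.0. Promoter sequences are from RefSeq, printed up to the first GENCODE exon in the window. The genes, lists, tests and alternatives were chosen with earlier results of these data known. Named genes are the 10 genes, the rest of both families, and from each list up to 4 genes past 2-fold with an interval on the same side of 1 at both time points. Further genes of these lists (S100a10, Ahnak, Plg, Ptprc, Lgals3bp, Lamp1, Ano6, Mertk and others) were named after their values were seen.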

Additional observations from a re-analysis of the deposited data

Results flagged for a closer look

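For 8 of the 10 genes the exact interval of the ratio of the folds at 48 h and 24 h did not hold 1, against 19.8% of all genes tested, a share not matched for read depth. The interval covers counting error in 4 libraries only, and the control pools alone differed beyond that error for 5 of the 10 genes, so a different effect of APAP at the later time is not shown. The fold at 48 h over that at 24 h was 9.97 for Anxa1, 6.48 for Anxa3, 4.25 for Lgals3, 1.91 for Anxa2, 1.90 for Lgals1, 1.5 for Anxa4, 1.24 for Lgals9 and 0.585 for Anxa7. For Anxa3 and Anxa7 the folds lay on opposite sides of 1, at 0.692 and 4.48 for Anxa3 and at 1.47 and 0.861 for Anxa7. The fold under 1 had an interval that held 1 for both, 0.380 to 1.25 for Anxa3 and 0.704 to 1.05 for Anxa7. It was 1.19 for Anxa3 with the other control pool and 1.04 for Anxa7 with library totals, so a change of direction is not shown. Without the control pools, from the APAP pools alone, the ratio was 1.88 for Anxa1, 3.76 for Anxa3 and 1.09 for Lgals9. For Anxa4 it was 1.17 (0.964 to 1.41), an interval that holds 1. Whether mice differ in this way was not tested.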

How the results depend on the processing

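The number of the 10 genes at least 2-fold higher was 2 or 3 at 24 h and 5 at 48 h under TMM, library totals, the control pool of the other time, summed control pools, a floor of 10 reads and a pseudocount of 1. Under TMM, 6.22% and 5.87% of all genes tested were at least 2-fold higher. This share was not computed with changed control pools, floor or pseudocount, so those counts cannot be judged against it. At a threshold of 1.5-fold the number of the 10 genes was 3 and 6, which also cannot be judged, since the share was not computed there. At 5-fold it was 0 at 24 h and 3 at 48 h, and when only those averaging 100 or more normalized reads were kept it was 2 and 3, since Anxa1 and Anxa3 have fewer, and the share of all genes was then 2.27% and 1.86%. The median log2 fold ran from 0.28 to 0.49 at 24 h and from 0.86 to 1.39 at 48 h. Library totals raised the median log2 fold of all genes tested to 0.19 and 0.25, and the share of genes at least 2-fold higher to 8.80% and 9.87%. Of the 20 single folds, 20 stayed within their counting interval under TMM, 15 with library totals, 10 with the other control pool and 18 with the sum of both. A fold crossed 1 for Anxa3 and Anxa5 at 24 h (other control pool) and for Anxa6 and Anxa7 at 48 h (library totals). No replicate could be left out, with 1 library per condition. With 15 and 3 control reads, the folds of Anxa1 moved from 1.20 to 6.36 at 24 h and from 12 to 2.25 at 48 h with the other control pool.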

Other observations

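Of the other cell types, the 5 cholangiocyte markers summed to 15.2 and 19.6 RPM in the controls and to 58.8 and 32.0 RPM after APAP at 24 h and 48 h. Sox9, a transcription factor of bile duct cells and of hepatocytes in regeneration, gave most of this sum, with folds of 3.97 (2.99 to 5.35) and 1.79 (1.33 to 2.42), while Krt7 and Krt19 had at most 15 reads in any library. The 6 markers of sinusoidal endothelium summed to 115 and 125 RPM in the controls and to 139.9 and 154 RPM after APAP, and Lyve1, a hyaluronan receptor, had folds of 2.62 (1.62 to 4.42) at 24 h, and 2.04 (1.31 to 3.24) later. Pecam1 had folds of 1.67 (1.23 to 2.30) and 1.94 (1.42 to 2.66). The median log2 fold of this list was -0.08 at both time points. Stab2 (0.874 and 0.780), Clec4g (0.94 and 0.902), Kdr (0.910 and 0.886) and Oit3 (0.945 and 0.995) had folds under 1. Among these folds, only that of Stab2 at 48 h had an interval below 1 (0.625 to 0.973). Col1a1, the main fibrillar collagen, had 27 and 42 reads in the controls and 52 and 216 after APAP, a fold of 1.44 (0.890 to 2.39) and 4.50 (3.22 to 6.42). The 6 lymphocyte markers summed to 1.40 to 3.09 RPM and the 3 mesothelial markers to 0.810 to 2.70 RPM, and none of these 9 genes had enough reads to be tested. Marco, a scavenger receptor of Kupffer cells, was 3.06-fold (2.30 to 4.13) and 3.99-fold (2.78 to 5.87) higher, while Clec4f, which marks resident Kupffer cells, had folds of 0.534 (0.441 to 0.645) and 0.985 (0.831 to 1.17).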
